A study of Mus musculus with 24 samples.

Results

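The 50 mitotic cell cycle genes described here encode proteins that copy DNA, separate chromosomes and divide the cell. They were taken by gene symbol from a list that was drawn up with earlier results of these data known. All 50 were among the 18647 genes of the deposited table, and all 50 were among the 18153 genes that passed the filter on low counts. Their mRNA was measured in bulk tissue of CA1, a subfield of the hippocampus, after pilocarpine-induced status epilepticus (SE). SE is a prolonged seizure that is followed by chronic epilepsy in this mouse model. Adult C57Bl/6N mice were given scopolamine methyl nitrate and then 335 mg/kg pilocarpine hydrochloride under the skin, with diazepam after SE had begun. Mice without SE were left out of the SE groups. Control mice (Ctr) had saline in place of pilocarpine, and scopolamine methyl nitrate and diazepam like the others. CA1 was dissected from brain slices at 5 times after SE (6, 12, 24, 36 or 72 h) and at 3 times after saline (12, 36 or 72 h). The 24 libraries make 8 groups of 3. No label says that the libraries of a group came from separate mice, so the p-values measure the spread between these libraries, which may be technical. In bulk tissue, more cells of a type and more RNA per cell cannot be told apart.

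A cell that divides leaves G1 phase when D-type and E-type cyclins activate their kinases and E2F factors switch on the genes of DNA synthesis. The MCM helicase and PCNA, the sliding clamp of the polymerases, then copy the genome during S phase, and ribonucleotide reductase, thymidylate synthase and thymidine kinase supply the deoxynucleotides. Cdk1 with cyclins A and B drives entry into mitosis, the spindle checkpoint holds the cell until every kinetochore is attached, and cytokinesis separates the daughter cells. In the adult hippocampus, most neurons have left the cell cycle for good, whereas glia can enter it again after injury and progenitors at the inner edge of the dentate gyrus divide throughout life.

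Library totals were 2663936 to 30133731 counts, with a median of 13521590, and the 3 Ctr 72 h libraries were shallow (11680209, 5793721 and 2663936). Levels are given as CPM, read counts scaled to the TMM-normalized library total. Differences are given as the log2 fold change (log2FC) with its standard error (s.e.) from edgeR's quasi-likelihood fit over all 24 libraries. That fit held 1 factor of unwanted variation. A gene was called differentially expressed (DEG) below an adjusted p of 0.05 when it also changed by 0.66 or more on the log2 scale (1.58-fold) against controls. Between SE time points, and for a difference between 2 SE effects, the change had to be 1 or more. Counting ignored strand, and for 10 of the 50 genes over 10% of the exon bases overlap a gene on the other strand. The share was 61.5% for Kif20a, 52.5% for Spc25, 48.4% for Ccnd1, 32.7% for Aurka, and 11.1 to 17.5% for Ccna2, Ccne2, Mcm7, Prc1, Tk1 and Kif4. Pcna, Tyms, Ccnb1, Ccnb2 and Kif4 have named pseudogenes. The values of these genes are uncertain to that extent. SE 12 h, 36 h and 72 h were set against the controls of the same time. SE 6 h and SE 24 h had no control of their own time and were set against the mean of the 3 control groups, so these 2 comparisons share their controls with each other and with the rest. Markers of peripheral nerve and sensory ganglion summed to over 200 CPM in 6 libraries and to at most 62.6 CPM in the others. The 6 were Ctr 72 h replicate 2, SE 6 h replicate 3, SE 12 h replicate 1, SE 36 h replicate 3 and SE 72 h replicates 1 and 2.

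The cell cycle genes rose late. At 72 h after SE, 48 of the 50 were DEGs with a higher level than in Ctr 72 h and 0 with a lower one, where 15.2% of all genes tested were higher and 4.20% lower. Their median log2FC was 2.81 (range -0.05 to 9.73), against 0.10 for all genes. The highest value is that of Melk, which had 0 reads in the controls, and the median is the same with Melk at its lower bound. At 36 h, 44 were higher and 0 lower (12.7% and 8.91% of all genes), with a median log2FC of 1.96 (range -0.52 to 4.82) against 0.00 for all genes. The change was smaller and mixed at 12 h, when 9 were higher and 3 lower (13.9% and 11.4% of all genes) and the median log2FC was 0.25. At 6 h, 20 were higher and 1 lower (15.8% and 6.21%), with a median log2FC of 0.62. At 24 h, 24 were higher and 2 lower (14.9% and 9.21%), with a median of 0.74.

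The summed level of the 50 genes shows the same course in single libraries. It was 297, 237 and 263 CPM in Ctr 12 h, 272, 274 and 299.9 CPM in Ctr 36 h and 321, 269.8 and 280.5 CPM in Ctr 72 h. After SE it was 359.9, 424 and 448 CPM at 6 h, 334, 328 and 323 CPM at 12 h and 466, 397 and 399 CPM at 24 h. It then reached 797, 589 and 674 CPM at 36 h and 1036, 1186 and 1437 CPM at 72 h. Every SE library lay above every control library, by little at 12 h and by the most at 72 h, and the 12 h libraries were the lowest among those taken after SE. This sum gives most weight to genes with many reads such as Ccnd1, Pcna and Anln.

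**Figure D1:**
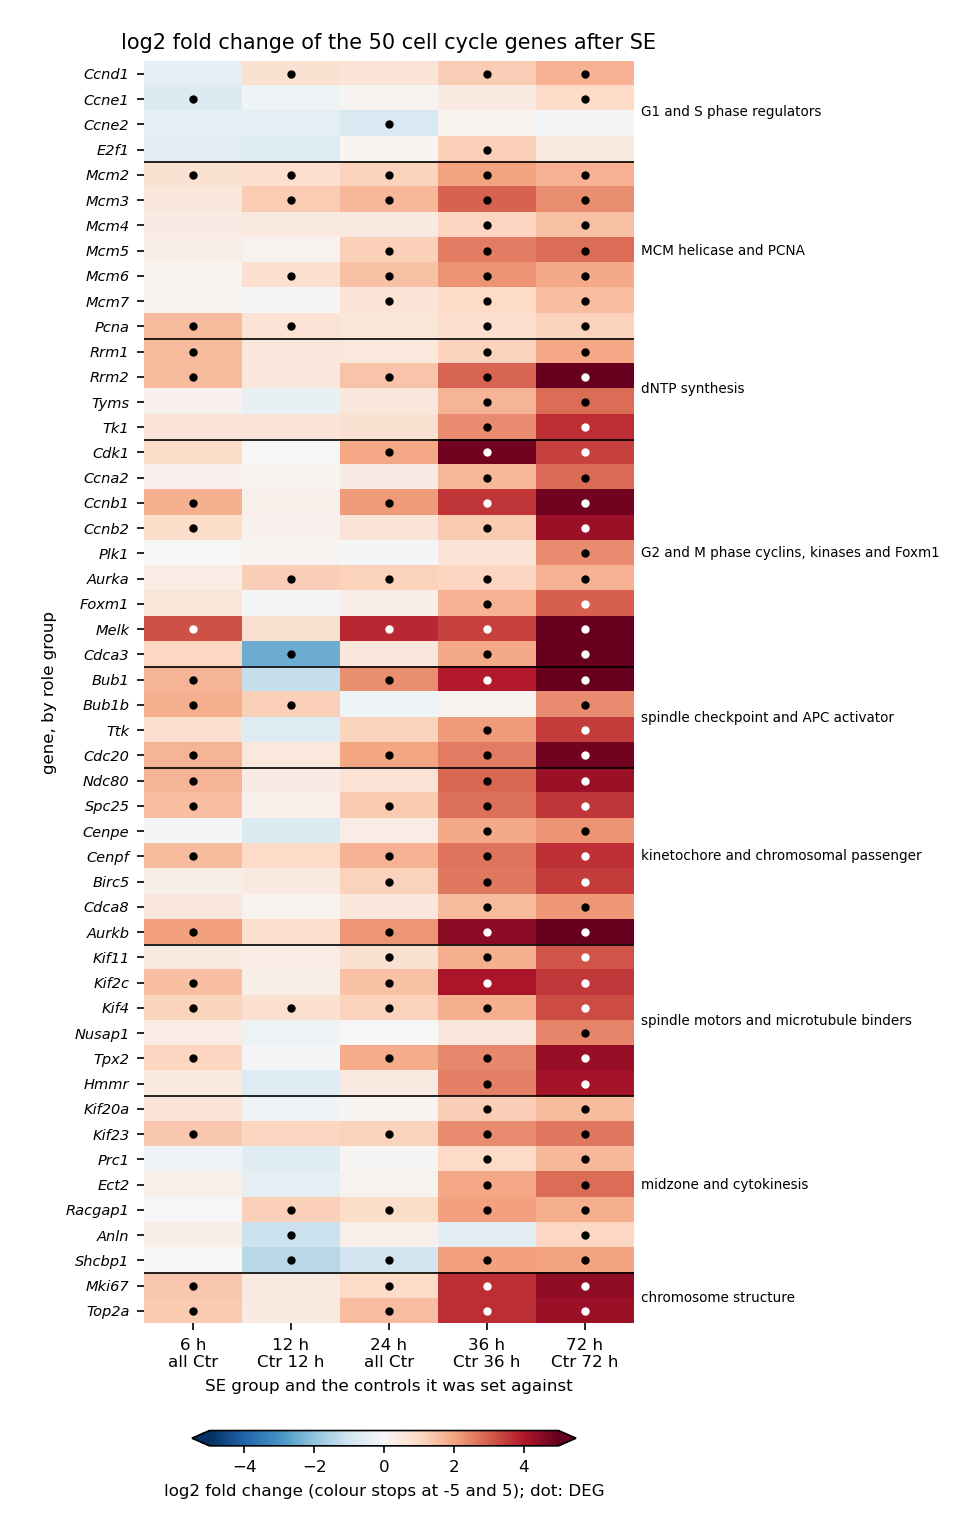
Heat map of log2FC for the 50 genes (rows, ordered by role) in the 5 comparisons of SE with controls (columns). Red is higher and blue lower after SE, the colour stops at -5 and 5, and a dot marks a DEG. Dots fill the 36 h and 72 h columns (44 and 48 of 50) and are sparse at 12 h (12 of 50).

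Among the SE group means, 46 of the 50 genes were highest at 72 h, 3 at 36 h (Ccne1, Ccne2 and Mcm6) and 1 at 6 h (Pcna), and 35 were lowest at 12 h. The most frequent pattern of calls, in 13 genes, was higher at 6, 24, 36 and 72 h and not a DEG at 12 h. A further 12 genes were DEGs at 36 and 72 h alone. The 6 h and 24 h comparisons use all control groups and the 12 h comparison only Ctr 12 h. A change of the same size was thus less readily called at 12 h. Among the 13, Aurkb, Bub1, Kif2c and Mki67 lost a call at 6 or 24 h when single libraries were left out. Ccnb1, Cdc20, Spc25 and Kif23, also among the 13, were not checked gene by gene in this way. The groups did not overlap for 47 of the 50 genes at 36 h and for 48 at 72 h, all with the SE libraries on the higher side, whereas 25.8% and 19.4% of all genes had this arrangement.

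Other settings and left-out libraries gave 38 to 47 DEGs of 50 at 36 h and 35 to 48 at 72 h. The count moved by more than 1.5 times at 6, 12 and 24 h. The numbers in the library labels fall into 3 ranges (92 to 104, 109 to 122 and 162 to 169). When these ranges replaced the factor of unwanted variation, 42 genes were DEGs at 36 h and 35 at 72 h. At the earlier times, 6 genes were DEGs after 6 h, 6 after 12 h and 8 after 24 h. No range holds both SE 72 h and Ctr 72 h libraries, so the 72 h value in that fit rests on differences between ranges in other groups. The same holds for the 24 h value, since all SE 24 h libraries are in the range 92 to 104, which has no controls. SE 6 h was also set against Ctr 12 h alone, and SE 24 h against Ctr 72 h alone, which shares its clock time. Then 13 genes were DEGs at 6 h and 16 at 24 h. Without Ctr 12 h replicate 3, 7 genes in place of 12 were DEGs at 12 h. Leaving out the 6 libraries with high peripheral nerve markers was chosen after the data were seen and leaves SE 72 h with 1 library. Then 43 genes were DEGs at 36 h and 42 at 72 h, but 12 at 6 h.

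Promoters of these genes were searched for 3 short motifs bound by known transcription factors, of which CCAAT alone was found in most of them. RefSeq promoters were at hand for 41 of the 50 genes (44 promoters, 3 genes with 2). The CHR element TTTGAA is bound by the MuvB complex with B-Myb and FoxM1, CCAAT by NF-Y, and the E2F site (TTTCCCGC, TTTCGCGC, TTTGCCGC or TTTGGCGC) by E2F with its partners. In the 250 bases before the start, on either strand, 11 of 44 promoters held the CHR element (25%, against 16% of 32851 promoters of all genes), 34 held CCAAT (77.3% against 33.8%) and 4 held the E2F site (9.09% against 1.86%). Matches of different motifs shared no bases. A match is a string of letters and was not tested as a binding site. Shown are the 150 bases before the RefSeq start of 4 genes that were DEGs at 36 and 72 h. Cdk1 was chosen for all 3 motifs, Mcm5 for CCAAT and E2F, Hmmr for several CCAAT boxes and Kif2c for CHR alone. They read 5′ to 3′ on the strand of the gene, with motif matches in capitals, and were placed in GRCm39 by exact match.
Cdk1, chr10:69188743-69188892, minus strand: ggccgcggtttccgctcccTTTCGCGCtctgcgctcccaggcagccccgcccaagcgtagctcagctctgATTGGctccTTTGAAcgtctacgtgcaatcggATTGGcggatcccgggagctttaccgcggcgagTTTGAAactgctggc
Mcm5, chr8:75835987-75836136, plus strand: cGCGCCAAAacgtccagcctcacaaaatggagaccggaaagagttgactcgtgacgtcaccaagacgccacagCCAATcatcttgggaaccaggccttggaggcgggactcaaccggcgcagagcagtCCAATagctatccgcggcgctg
Hmmr, chr11:40624265-40624414, minus strand: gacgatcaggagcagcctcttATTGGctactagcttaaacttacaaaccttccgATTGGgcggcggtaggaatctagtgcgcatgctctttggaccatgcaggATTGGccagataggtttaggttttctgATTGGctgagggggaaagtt
Kif2c, chr4:117035970-117036119, minus strand: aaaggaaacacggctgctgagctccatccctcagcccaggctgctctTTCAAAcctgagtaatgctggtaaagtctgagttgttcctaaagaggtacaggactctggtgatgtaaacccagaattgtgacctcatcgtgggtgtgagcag
The Mcm5 stretch ends just before the annotated gene (chr8:75836140-75856231), and that of Hmmr overlaps the first exon of the gene (chr11:40592167-40624288) by 24 bases. Those of Cdk1 (chr10:69170976-69236595) and Kif2c (chr4:117016830-117039836) lie within the longer gene models of GENCODE vM39, with 30 and 0 bases in exons and the rest in introns. At 36 h the log2FC was 4.82 for Cdk1, 2.56 for Mcm5, 2.53 for Hmmr and 4.08 for Kif2c. Between 36 and 72 h Hmmr and Kif2c rose (log2FC 1.80 and 1.84) while Mcm5 was not a DEG (0.47). The call of Kif2c was lost without SE 36 h replicate 2. Cdk1 had 7.48, 3.47 and 7.41 CPM in SE 36 h and 18, 18.3 and 18.6 CPM in SE 72 h. A link between the motifs and these changes was not tested.

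The 4 genes of G1 phase and S phase entry had the lowest median log2FC of the 9 role groups at 36 h (0.83) and at 72 h (0.73), with 2 of 4 DEGs at each time. Ccnd1 (chr7:144483668-144493662, minus strand, GRCm39) encodes cyclin D1, the partner of Cdk4 and Cdk6 that carries mitogen signals into the cycle. It had 55.8, 54.4 and 61.1 CPM in Ctr 36 h and 136, 136 and 133 CPM in SE 36 h. At 72 h it had 47.7, 59.5 and 33 CPM in controls and 87.8, 125 and 256 CPM after SE. The SE libraries lay above the controls at both times, and those of 72 h ranged widely, with replicate 3 far above the others. The log2FC of Ccnd1 was 0.78 ± 0.27 (s.e.) at 12 h (adjusted p = 0.0304), 1.24 ± 0.27 at 36 h (adjusted p = 0.00159) and 1.75 ± 0.29 at 72 h (adjusted p = 0.000125). Since counting ignored strand and 48.4% of the exon bases of Ccnd1 overlap LTO1 on the other strand, reads of the 2 genes cannot be told apart there. The call at 12 h was lost without Ctr 12 h replicate 2 or 3 or without SE 12 h replicate 2 or 3 (log2FC 0.64, 0.78, 0.79 and 0.64).

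Cyclins E1 and E2, which carry the cell from G1 into S phase with Cdk2, moved little. Ccne1 was a DEG with a lower level at 6 h (log2FC -0.67 ± 0.19, adjusted p = 0.00919), when its libraries had 6.87, 8.03 and 7.86 CPM. It was higher at 72 h (log2FC 1.00 ± 0.24, adjusted p = 0.0036), when they had 15.6, 16 and 20.5 CPM. In the 9 control libraries it ranged from 2.56 to 18 CPM, with the lowest value in Ctr 72 h replicate 2. Without that library the log2FC at 72 h was 0.25 (adjusted p = 0.464). The 6 h value lay near the threshold and missed it when any of 6 libraries was left out (log2FC -0.65 to -0.51). These were SE 6 h replicate 1, Ctr 12 h replicate 3, Ctr 36 h replicates 1 and 3, and Ctr 72 h replicates 1 and 3. Ccne2 was a DEG at 24 h alone, with a lower level (5.73, 4.79 and 4.69 CPM, log2FC -0.75 ± 0.23, adjusted p = 0.0135), below all 9 controls. The call was lost without SE 24 h replicate 2 or 3 (adjusted p = 0.0535 and 0.064). E2f1, the transcription factor that switches on genes of DNA synthesis, was a DEG at 36 h alone (log2FC 1.21 ± 0.25, adjusted p = 0.000972), and at 72 h its log2FC was 0.46 ± 0.25 (adjusted p = 0.183). Ccne2 and E2f1 were the 2 genes of the 50 that were not DEGs at 72 h.

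All 7 genes of the MCM helicase and PCNA were DEGs with a higher level at 36 h and at 72 h, with median log2FC of 2.00 and 1.72. Between SE 36 h and SE 72 h 0 of the 7 were DEGs, and Mcm6 had its highest mean at 36 h. Before 36 h, 2 of 7 were higher at 6 h (Mcm2 and Pcna), 4 of 7 at 12 h (Mcm2, Mcm3, Mcm6 and Pcna) and 5 of 7 at 24 h (Mcm2, Mcm3, Mcm5, Mcm6 and Mcm7). Mcm3, a subunit of the helicase ring, had 3.60, 2.35 and 2.47 CPM in Ctr 12 h and 8.60, 4.64 and 6.69 CPM in SE 12 h. Its log2FC was the largest of the 50 genes at 12 h (1.26 ± 0.29, adjusted p = 0.00181). At 36 h it had 25, 20.7 and 21.8 CPM against 3.52, 2.04 and 3.20 CPM in controls (log2FC 2.96 ± 0.29, adjusted p = 2.55e-07). Of the other subunits of the ring, Mcm5 had the largest log2FC at 72 h (2.80 ± 0.34), followed by Mcm6 (1.91 ± 0.19), Mcm2 (1.72 ± 0.24), Mcm7 (1.54 ± 0.16) and Mcm4 (1.47 ± 0.19).

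Pcna and Rrm1 had an early peak. Pcna had 74.9, 111 and 132 CPM at 6 h after SE, 63.6, 49.8 and 53.7 CPM at 12 h and 72.2, 75.1 and 90.8 CPM at 72 h, while the 9 controls had 25.2 to 47 CPM. Its log2FC was 1.59 ± 0.13 at 6 h (adjusted p = 1.6e-08), 0.72 ± 0.17 at 12 h, 0.83 ± 0.17 at 36 h and 1.14 ± 0.17 at 72 h (adjusted p = 5.64e-05). The 12 h value fell below the log2FC threshold without SE 12 h replicate 1 (0.61). Pcna also serves in DNA repair, outside the cell cycle, and has named pseudogenes that could share its reads. Rrm1, the large subunit of ribonucleotide reductase, had 33.6, 46.7 and 45.8 CPM at 6 h, 17.4, 17.5 and 22.3 CPM at 12 h, 39.6, 29.8 and 32.6 CPM at 36 h and 51.1, 45.8 and 59.3 CPM at 72 h. The controls had 9.37 to 16.3 CPM. Its log2FC was 1.59 ± 0.15 at 6 h (adjusted p = 7.65e-08) and 1.92 ± 0.20 at 72 h (adjusted p = 6.46e-07), and its level fell between 6 and 12 h (log2FC -1.14 ± 0.19, adjusted p = 0.00348).

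Rrm2 (chr12:24757811-24764145, plus strand), the small subunit of the same enzyme, whose protein is made in S phase and destroyed in mitosis, had its highest level at 72 h. It had 3.28, 5.19 and 3.95 CPM at 6 h, 11.2, 5.44 and 9.80 CPM at 36 h and 36.8, 34.4 and 53.4 CPM at 72 h. The controls had 1.37, 0.939 and 1.31 CPM at 36 h and 2.28, 0.171 and 1.50 CPM at 72 h. The log2FC was 2.91 ± 0.33 at 36 h (adjusted p = 1.55e-06) and 5.25 ± 0.39 at 72 h (adjusted p = 6.83e-09). Between 36 and 72 h after SE, its log2FC of 2.19 ± 0.29 (adjusted p = 9.72e-05) was the largest of the 50 genes, whereas Rrm1 was not a DEG there (log2FC 0.62 ± 0.19). Thymidylate synthase (Tyms) and thymidine kinase 1 (Tk1) were DEGs at 36 h and 72 h and at no earlier time, with a log2FC at 72 h of 2.81 ± 0.34 and 3.69 ± 0.44. All 4 genes of deoxynucleotide synthesis were thus DEGs at 36 and 72 h, 2 at 6 h and 0 at 12 h.

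**Figure D2:**
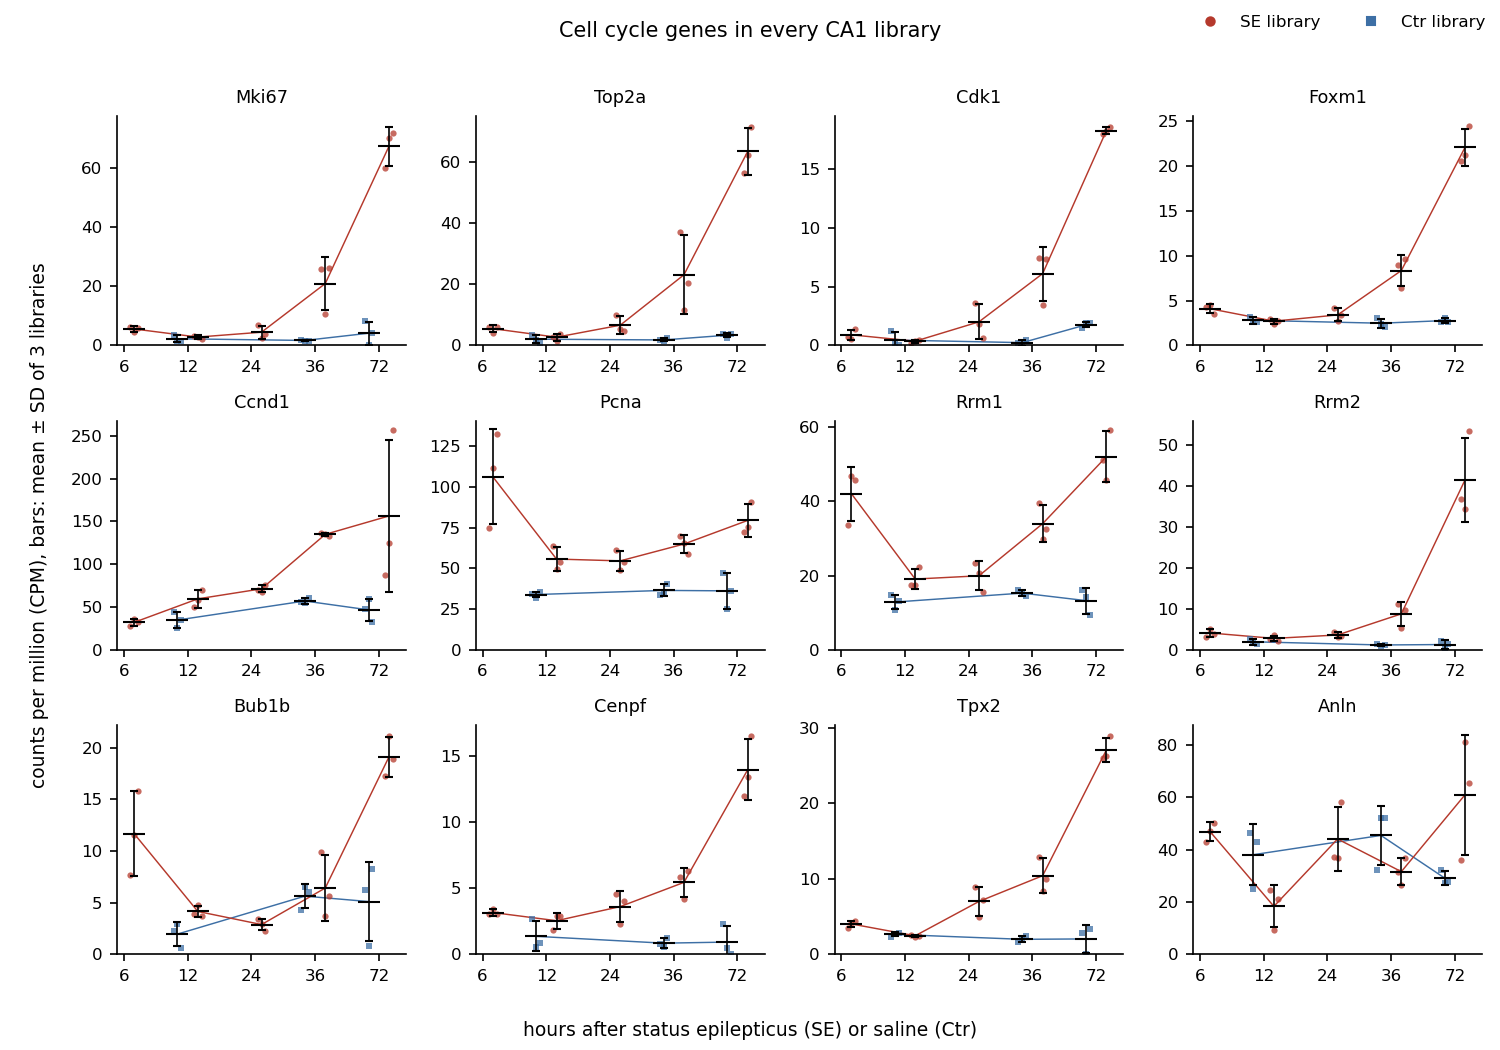
CPM of 12 of the genes (y axis, linear from 0) in every library by hours after SE or saline (x axis, evenly spaced). Red circles are SE libraries, blue squares are Ctr libraries, and bars are the mean ± SD of 3 libraries. Mki67, Top2a, Cdk1, Foxm1, Rrm2, Cenpf and Tpx2 are low until 24 h and highest at 72 h, whereas Pcna is highest at 6 h and Rrm1 has a peak there too.

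The cyclins and kinases of G2 phase and mitosis with Foxm1 held 8 of 9 DEGs at 36 h and 9 of 9 at 72 h, with median log2FC of 1.75 and 3.41. Cdk1, the kinase that starts mitosis, whose promoter is shown above, had 0.216, 0 and 0.493 CPM in Ctr 36 h and 7.48, 3.47 and 7.41 CPM in SE 36 h. In Ctr 72 h it had 1.52, 1.88 and 1.87 CPM and in SE 72 h 18, 18.3 and 18.6 CPM. The 3 libraries of SE 72 h were close together and lay above all the others. Its log2FC was 4.82 ± 0.91 at 36 h (adjusted p = 0.000369), the largest of the 50 genes at that time, and 3.41 ± 0.78 at 72 h (adjusted p = 0.00264). Its control level at 36 h rests on 3, 0 and 6 reads.

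Foxm1, the transcription factor that drives genes of G2 phase and mitosis, had 2.62, 3.07 and 2.62 CPM in Ctr 72 h and 20.5, 21.3 and 24.5 CPM in SE 72 h, and 8.97, 6.38 and 9.69 CPM in SE 36 h. The log2FC was 1.75 ± 0.22 at 36 h (adjusted p = 4.27e-06) and 3.00 ± 0.24 at 72 h (adjusted p = 1.58e-08). At 12 h its log2FC was -0.05 ± 0.22, with overlapping groups. Of the cyclins of this stage, Ccnb1 was a DEG at 6, 24, 36 and 72 h, Ccnb2 at 6, 36 and 72 h and Ccna2 at 36 and 72 h. Their log2FC at 72 h was 4.82 ± 0.79, 4.27 ± 0.45 and 2.84 ± 0.34. In Ctr 72 h, Ccnb1 had 15, 0 and 0 reads and Ccnb2 20, 0 and 5. Aurka, the kinase of the spindle poles, was a DEG from 12 h on. It had 2.65, 2.35 and 2.40 CPM in Ctr 12 h and 6.86, 4.31 and 6.13 CPM in SE 12 h (log2FC 1.22 ± 0.24, adjusted p = 0.000537), and 10.3, 10.4 and 9.26 CPM in SE 72 h. Plk1, which acts at centrosomes and kinetochores, was a DEG at 72 h alone (log2FC 2.38 ± 0.33, adjusted p = 1.87e-05).

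Melk, a kinase of the same group with high expression in dividing cells, had 0 reads in all 3 Ctr 72 h libraries and 4.20, 4.96 and 6.19 CPM in SE 72 h. With a floor of 3 counts per library for the controls, its level was at least 8.12-fold higher. At 36 h, where its controls had 4, 2 and 4 reads, its log2FC was 3.41 ± 0.62 (adjusted p = 0.000336). Cdca3, which helps the degradation of the mitosis inhibitor Wee1, had 2.08, 0.899 and 1.62 CPM in Ctr 12 h and 0.497, 0.232 and 0 CPM in SE 12 h, a lower level (log2FC -2.47 ± 0.69, adjusted p = 0.00729). At 72 h it was higher, with 1.01, 0 and 0 CPM in controls and 14.8, 18.2 and 16.7 CPM after SE (log2FC 5.33 ± 0.75, adjusted p = 2.19e-05). The SE libraries of this gene thus lay below all controls of their time at 12 h and above them at 72 h.

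The 4 genes of the spindle checkpoint and of the APC activator Cdc20, which lets mitosis end, were all DEGs at 72 h with a median log2FC of 4.15, and 3 of 4 (Bub1, Bub1b and Cdc20) were DEGs at 6 h. The call of Bub1 at 6 h (adjusted p = 0.0415) was lost when any of the 3 SE 6 h libraries was left out (adjusted p = 0.0971, 0.058 and 0.121), and also without Ctr 12 h replicate 3 or Ctr 72 h replicate 2 or 3. Bub1, a checkpoint kinase, had 2, 0 and 0 reads in Ctr 72 h and 7.93, 9.16 and 10.0 CPM in SE 72 h. By summed counts its ratio at 72 h was 92.7 (95% counting interval 25.5 to 768), which covers counting error alone. Bub1b, which encodes the checkpoint protein BubR1, had 7.67, 11.6 and 15.8 CPM at 6 h, 3.93, 4.81 and 3.74 CPM at 12 h, 9.93, 3.70 and 5.64 CPM at 36 h and 17.3, 21.2 and 18.9 CPM at 72 h. Its controls differed by time, with 2.27, 2.97 and 0.657 CPM at 12 h, 4.32, 6.52 and 6.08 CPM at 36 h and 6.25, 0.853 and 8.25 CPM at 72 h. The log2FC of Bub1b was 1.81 ± 0.30 at 6 h (adjusted p = 0.000103) and 1.18 ± 0.42 at 12 h (adjusted p = 0.0307). It was 0.18 ± 0.39 at 36 h (adjusted p = 0.763) and 2.37 ± 0.44 at 72 h (adjusted p = 0.00042). The call at 12 h was lost without Ctr 12 h replicate 3, the lowest of its group (log2FC 0.67, adjusted p = 0.202), or replicate 2 of SE 12 h (adjusted p = 0.0828). Ttk, the kinase that starts checkpoint signalling, was a DEG at 36 and 72 h (log2FC 2.11 ± 0.61 and 3.48 ± 0.71), and Cdc20 at 6, 24, 36 and 72 h (log2FC 4.82 ± 0.61 at 72 h). In Ctr 72 h, Ttk had 19, 0 and 1 reads and Cdc20 11, 0 and 0.

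All 7 genes of the kinetochore and the chromosomal passenger complex were DEGs at 36 h and at 72 h (median log2FC 2.72 and 3.57). At 6 h and at 24 h 4 of the 7 were DEGs with a higher level (15.8% and 14.9% of all genes), and at 12 h 0 of 7 were DEGs. Cenpf, a kinetochore protein made in G2 phase, had 0.791, 0.522 and 1.23 CPM in Ctr 36 h and 5.85, 4.18 and 6.27 CPM in SE 36 h. At 72 h it had 2.28, 0.512 and 0 CPM in controls and 12, 13.4 and 16.5 CPM after SE. The log2FC of Cenpf was 2.72 ± 0.53 at 36 h (adjusted p = 0.000485) and 3.65 ± 0.56 at 72 h (adjusted p = 6.36e-05), without overlap of the groups. Aurkb, the kinase of the passenger complex that corrects wrong attachments, had 4, 1 and 3 reads in Ctr 36 h and 4.89, 3.07 and 4.33 CPM in SE 36 h (log2FC 4.46 ± 0.82, adjusted p = 0.000265). The log2FC was 5.25 ± 0.89 at 72 h (adjusted p = 0.00016), where the controls had 11, 0 and 0 reads. The call of Aurkb at 24 h (29, 8 and 5 reads after SE) was lost without SE 24 h replicate 1 (log2FC 0.54, adjusted p = 0.613). That at 6 h was lost without SE 6 h replicate 1 or 3 or Ctr 72 h replicate 2 (adjusted p = 0.0735, 0.0512 and 0.0515). Cdca8, a further subunit of that complex, had 3.78, 2.68 and 2.56 CPM in SE 36 h and 10.9, 12.2 and 11.8 CPM in SE 72 h. This was a rise of 1.95 ± 0.34 on the log2 scale between these times (adjusted p = 0.00115). Of the others, Ndc80 and Spc25, subunits of the complex that holds microtubules, had a log2FC of 4.30 ± 0.78 and 3.57 ± 0.68 at 72 h. Ctr 72 h held 10, 0 and 0 reads of Ndc80 and 26, 0 and 2 of Spc25. The log2FC at 72 h was 2.23 ± 0.54 for the kinetochore motor Cenpe and 3.48 ± 0.49 for the passenger subunit Birc5.

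The 6 spindle motors and microtubule binders were all DEGs at 72 h and all 6 rose between 36 and 72 h as well. For Kif2c, this rise was lost without SE 36 h replicate 2 (adjusted p = 0.0851). Tpx2, which activates Aurora A and builds spindle microtubules, had 2.79, 0 and 3.37 CPM in Ctr 72 h. It had 8.92, 4.96 and 7.15 CPM in SE 24 h, 12.9, 8.35 and 10.0 CPM in SE 36 h and 26, 26.2 and 28.9 CPM in SE 72 h. Its log2FC was 1.86 ± 0.25 at 24 h (adjusted p = 5.19e-06), 2.39 ± 0.31 at 36 h (adjusted p = 7.65e-06) and 4.36 ± 0.38 at 72 h (adjusted p = 5.81e-08). Kif2c, whose promoter is also shown above, encodes a kinesin that takes microtubules apart at the kinetochore. It had 1, 6 and 1 reads in Ctr 36 h and 3.78, 1.58 and 3.76 CPM in SE 36 h (log2FC 4.08 ± 0.59, adjusted p = 2.05e-05). Its level at 72 h was 8.82, 11.4 and 11.6 CPM after SE and 0.506, 3.58 and 0.375 CPM in controls (log2FC 3.54 ± 0.54, adjusted p = 5.92e-05). Kif11, which pushes the spindle poles apart, had a log2FC of 3.13 ± 0.37 at 72 h, and the chromosome motor Kif4 3.27 ± 0.36. It was 2.45 ± 0.35 for Nusap1, which bundles spindle microtubules, and 4.17 ± 0.68 for Hmmr, which acts at the spindle poles. Kif4 and Mcm2 were the 2 genes of the 50 that were DEGs with a higher level at all 5 times. Nusap1 was not a DEG until 72 h (log2FC 0.57 ± 0.31 at 36 h).

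All 7 genes of the spindle midzone and of cytokinesis were DEGs at 72 h (median log2FC 1.80), and Anln was not a DEG at 36 h. At 12 h, 1 was higher and 2 were lower (13.9% and 11.4% of all genes). Each of these 12 h calls was lost when certain single libraries were left out. Anln encodes anillin, a scaffold of the contractile ring. It had 46.4, 24.9 and 42.8 CPM in Ctr 12 h and 24.5, 9.25 and 21.3 CPM in SE 12 h (log2FC -1.06 ± 0.33, adjusted p = 0.0145). At 36 h it had 31.4, 26.4 and 36.9 CPM after SE and 32.2, 52 and 51.9 CPM in controls (log2FC -0.52 ± 0.32, adjusted p = 0.235). At 72 h it had 36.1, 81.2 and 65.4 CPM after SE and 32.3, 27.3 and 27.7 CPM in controls (log2FC 1.05 ± 0.33, adjusted p = 0.0234). Oligodendrocytes that no longer divide also express Anln, and its control level was 24.9 to 52 CPM over the 9 libraries. The call at 12 h was lost without Ctr 12 h replicate 1 or 3 or SE 12 h replicate 2 (log2FC -0.90, -0.96 and -0.73). That at 72 h was lost without Ctr 72 h replicate 3 or SE 72 h replicate 2 or 3 (log2FC 1.02, 0.80 and 1.00).

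Shcbp1, which acts at the midbody, had 1.23, 0.760 and 0.696 CPM in Ctr 12 h and 0.497, 0.265 and 0.239 CPM in SE 12 h, a lower level (log2FC -1.38 ± 0.40, adjusted p = 0.00942). The adjusted p was 0.051 without Ctr 12 h replicate 1 and 0.052 without SE 12 h replicate 2. At 36 h it was higher, with 2.59, 1.58 and 2.11 CPM against 0.360, 0.678 and 0.411 CPM (log2FC 2.07 ± 0.38, adjusted p = 0.000277), and at 72 h with 7.22, 6.30 and 6.82 CPM (log2FC 2.00 ± 0.37). Racgap1, a regulator of the central spindle, was a DEG with a higher level at 12 h (log2FC 1.19 ± 0.45, adjusted p = 0.0415). Its libraries had 7.90, 31.2 and 4.94 CPM, and without SE 12 h replicate 2 the log2FC was -0.037. At 36 h and 72 h all 3 SE libraries of Racgap1 lay above the controls, with 21.2, 15.1 and 14.8 CPM at 36 h and 23.8, 29.5 and 33.2 CPM at 72 h (log2FC 2.07 ± 0.47 and 1.80 ± 0.48). Without Ctr 72 h replicate 1, the adjusted p at 72 h was 0.0576. At 72 h the log2FC was 1.60 ± 0.33 for Kif20a and 2.65 ± 0.50 for Kif23, motors of the central spindle. It was 1.67 ± 0.27 for Prc1, which bundles its microtubules, and 2.78 ± 0.35 for Ect2, which activates RhoA at the cleavage site.

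Mki67 and Top2a, the most used markers of dividing cells, followed the same course. Mki67 (chr7:135291513-135318299, minus strand), whose protein Ki-67 coats mitotic chromosomes, had 1.87, 1.62 and 1.56 CPM in Ctr 36 h and 25.9, 10.7 and 26.3 CPM in SE 36 h. It had 8.10, 0.171 and 4.12 CPM in Ctr 72 h and 59.9, 70.4 and 72 CPM in SE 72 h. Its 3 SE 72 h libraries lay above those of SE 36 h, and these above all 9 controls. For Mki67, the log2FC 6 h after SE was 1.33 ± 0.36, and the later values were 0.44 ± 0.47 after 12 h and 0.96 ± 0.38 after 24 h. It was 3.69 ± 0.47 at 36 h (adjusted p = 6.2e-06) and 4.44 ± 0.51 at 72 h (adjusted p = 1.75e-06). The 12 h value was not a DEG (adjusted p = 0.486) and the 24 h value was close to the threshold (adjusted p = 0.0486). That value was 0.52 without SE 24 h replicate 1 and 0.58 without Ctr 72 h replicate 2. Top2a (chr11:98883769-98915062, minus strand), the topoisomerase that untangles sister chromatids, had 1.73, 1.36 and 2.30 CPM in Ctr 36 h and 37.2, 11.7 and 20.5 CPM in SE 36 h. It had 3.71, 2.56 and 3.75 CPM in Ctr 72 h and 56.4, 62.4 and 71.5 CPM in SE 72 h. Its log2FC was 3.70 ± 0.47 at 36 h (adjusted p = 5.5e-06) and 4.26 ± 0.49 at 72 h (adjusted p = 2.02e-06).

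**Figure D3:**
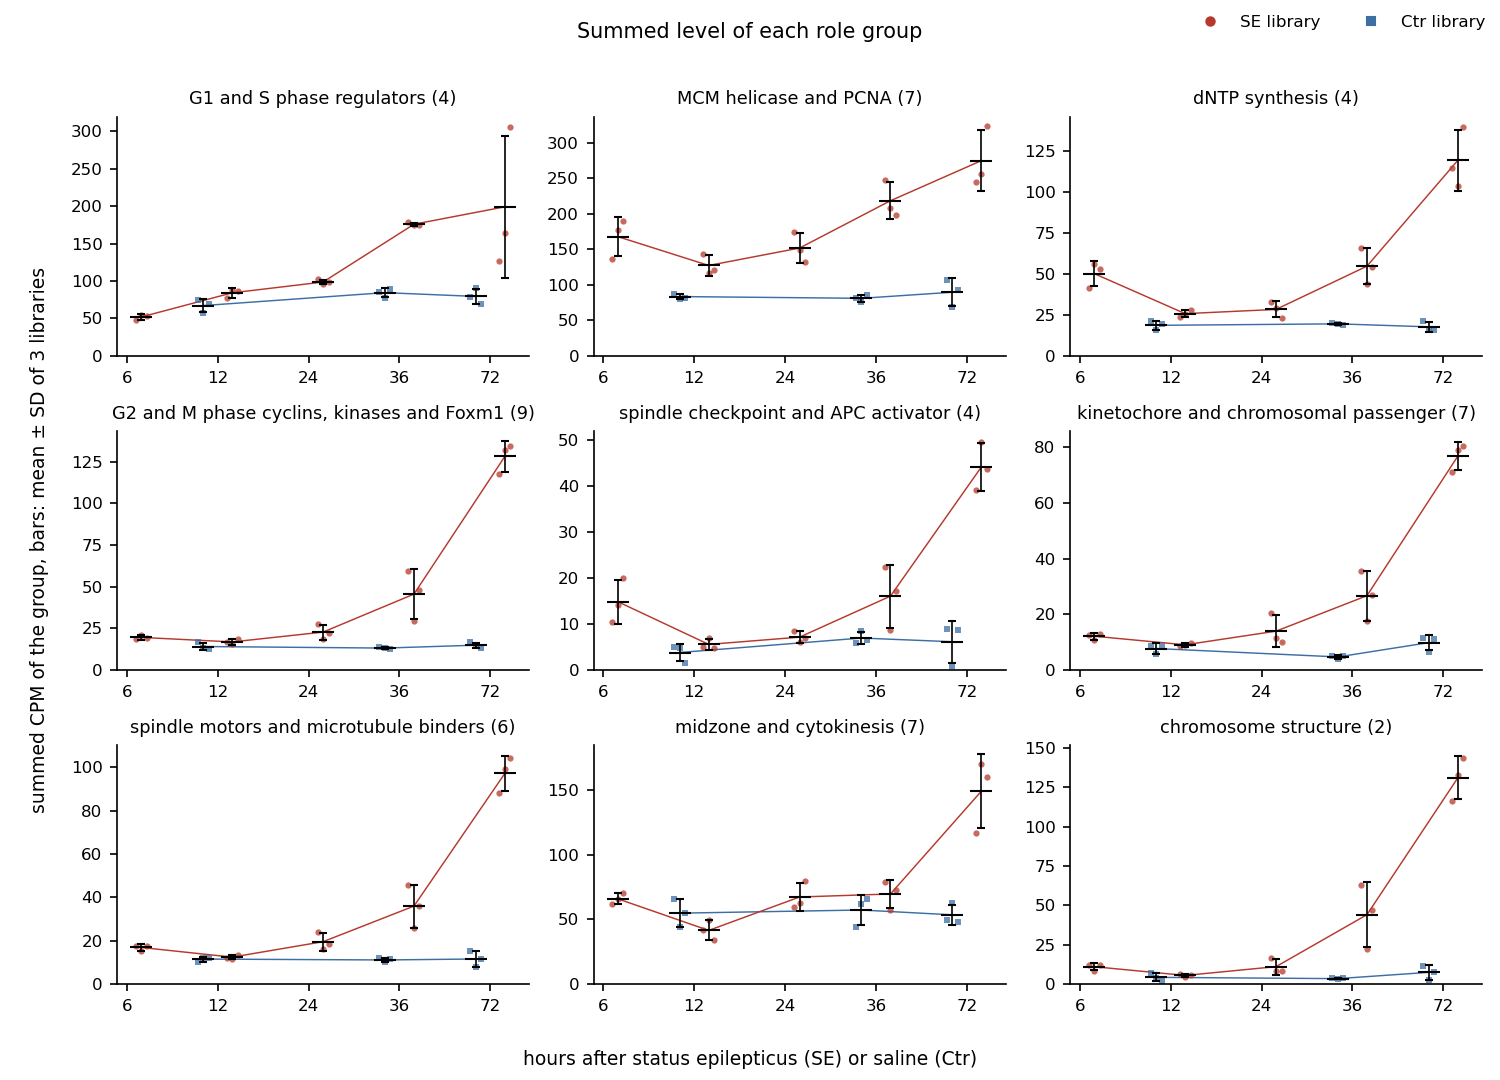
Summed CPM of each of the 9 role groups (y axis, linear from 0) in every library by hours after SE or saline (x axis, evenly spaced), with the number of genes in brackets. Red circles are SE libraries, blue squares are Ctr libraries, and bars are the mean ± SD of 3 libraries. The groups of G2 phase and mitosis climb steeply from 36 to 72 h. At 6 h the sums for the MCM helicase and PCNA and for deoxynucleotide synthesis stand above all controls. So do, by less, those for G2 and M phase cyclins and kinases with Foxm1, for the spindle checkpoint and for spindle motors.

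Steps between neighbouring SE time points showed when the levels moved. From 6 to 12 h, 0 genes rose and 5 fell (0.446% and 0.898% of all genes). They were Cdca3 (log2FC -2.67), Bub1b (-1.50), Shcbp1 (-1.44), Anln (-1.36) and Rrm1 (-1.14). The count was 1 when SE 6 h replicate 2 or 3 or SE 12 h replicate 2 was left out. From 12 to 24 h, 3 rose and 0 fell (1.47% and 1.72%). They were Bub1 (log2FC 2.60), Tpx2 (1.48) and Anln (1.27). The count was 5 when SE 12 h replicate 1 or SE 24 h replicate 3 was left out. The call of Bub1 was lost when replicate 1 or 3 of SE 12 h or replicate 1 or 2 of SE 24 h was left out, and that of Anln in the absence of replicate 2 of SE 12 h or replicate 3 of SE 24 h. From 24 to 36 h, 7 rose and 0 fell (0.347% and 0.182%), with the largest log2FC in Mki67 (2.32), Shcbp1 (2.16) and Top2a (1.82). When replicate 1, 2 or 3 of SE 36 h was left out, that count was 1, 9 and 4, and it was 1 when replicate 3 of SE 24 h was left out. It was also 1 without the factor of unwanted variation. The calls of Mki67, Shcbp1 and Top2a were lost without replicate 3 of SE 24 h or replicate 1 of SE 36 h. The median log2FC of this step over the 50 genes was 0.88.

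The step from 36 to 72 h held 24 genes that rose and 0 that fell (3.08% and 1.05% of all genes), with a median log2FC of 1.37. In 43 of the 50 genes all 3 SE 72 h libraries lay above all 3 SE 36 h libraries (17.3% of all genes). By role, the 24 were 6 of 6 spindle motors and microtubule binders, 5 of 7 genes of the midzone and cytokinesis, and 5 of 9 cyclins and kinases of G2 phase and mitosis with Foxm1. They also held 2 of 4 checkpoint genes, 2 of 7 kinetochore and passenger genes, 2 of 2 chromosome structure genes and 2 of 4 genes of deoxynucleotide synthesis. None of the 4 G1 phase genes and none of the 7 genes of the MCM helicase and PCNA was among them. Without SE 36 h replicate 2, the library with the lowest level of its group in 38 of the 50 genes, the count was 13, and without the 6 libraries with high peripheral nerve markers it was 6.

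The SE effect itself differed between 12 and 72 h. In the test of the difference between SE 72 h against Ctr 72 h and SE 12 h against Ctr 12 h, 39 of the 50 genes were higher at 72 h and 0 lower (9.42% and 3.67% of all genes). The median difference in log2FC was 2.73. All 50 differences were above zero (range 0.41 to 8.95). All 7 kinetochore and passenger genes, all 6 spindle genes and all 4 genes of deoxynucleotide synthesis were among the 39, but 3 of 7 genes of the MCM helicase and PCNA and 2 of 4 G1 phase genes. For Mki67, the difference was 4.00 ± 0.69 (adjusted p = 0.000589), and for Foxm1 3.05 ± 0.32 (adjusted p = 5.33e-06). Fitted differences of Melk and Bub1 are larger, but with 0 and 2 reads in Ctr 72 h they depend on the prior count of the fit. When the label ranges replaced the factor of unwanted variation, 19 genes in place of 39 passed.

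Genes that act around the 50 were followed in 6 further lists of regulators and partners, 75 genes in all. At 72 h 48 of the 75 were DEGs with a higher level and 0 with a lower one (15.2% and 4.20% of all genes), and at 36 h 34 and 2 (12.7% and 8.91%). At 24 h the counts were 24 and 2 (14.9% and 9.21%) and at 6 h 18 and 4 (15.8% and 6.21%). At 12 h they were 12 and 6, close to the share of all genes (13.9% and 11.4%). Their median log2FC was 0.20, 0.05, 0.41, 0.71 and 1.30 from 6 to 72 h. By list at 72 h, 12 of 12 genes of the kinetochore, condensin and cohesin were higher, 14 of 18 of origin licensing and the fork, and 8 of 14 of mitotic entry and exit. So were 5 of 6 further G1 cyclins and kinases, 3 of 7 CDK inhibitors and 6 of 18 pocket proteins, E2F factors and DREAM subunits.

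The largest log2FC of the 75 at 6, 12 and 24 h was that of Cdkn1a, which encodes p21, an inhibitor of cyclin-dependent kinases induced by stress and DNA damage. Cdkn1a had 121, 164 and 109 CPM at 6 h, 137, 240.5 and 272 CPM at 12 h and 147, 121 and 190.0 CPM at 24 h. It had 55.2, 87.2 and 66.9 CPM at 36 h and 66, 25.5 and 41.5 CPM at 72 h, and 3.09 to 18 CPM in the 9 controls. Its mean was highest at 12 h, the SE time at which 35 of the 50 genes had their lowest mean, and every SE library lay above all 9 controls. The log2FC was 3.70 ± 0.31, 4.36 ± 0.47, 3.92 ± 0.31, 3.13 ± 0.45 and 1.86 ± 0.47 from 6 to 72 h (adjusted p = 3.14e-08, 1.01e-06, 5.85e-09, 2.72e-05 and 0.00544). The effect at 72 h was lower than that at 12 h by 2.50 on the log2 scale (adjusted p = 0.00888). The other 6 CDK inhibitors held 0 DEGs at 6 h. At 12 h Cdkn2b was lower (log2FC -1.62 ± 0.42, adjusted p = 0.00421).

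Cdt1, which loads the MCM helicase onto origins, was higher at every time, with 4.08, 6.17 and 4.29 CPM at 6 h, 5.47, 4.51 and 6.61 CPM at 12 h and 9.35, 7.92 and 14.8 CPM at 72 h. The 9 controls had 0.253 to 1.07 CPM. Its log2FC was 3.05 ± 0.28 at 6 h (adjusted p = 7.05e-08) and 3.00 ± 0.36 at 12 h (adjusted p = 3.23e-06). Cenpa, the histone that marks centromeres, had an early and a late peak. It had 12.3, 15.4 and 20.8 CPM at 6 h, 2.98, 2.95 and 5.74 CPM at 12 h and 12.4, 14.1 and 16.7 CPM at 72 h (log2FC 3.41 ± 0.37, 0.84 ± 0.49 and 3.68 ± 0.61). Cdk6, a partner of the D cyclins, was a DEG at all 5 times, with a log2FC of 3.20 ± 0.34 at 36 h. The phosphatase gene Cdc25b, which activates Cdk1, was lower until 36 h (log2FC -1.37 ± 0.25, -1.49 ± 0.28, -0.88 ± 0.24 and -1.23 ± 0.28), and at 72 h its log2FC was -0.10 ± 0.28. Its paralog Cdc25c was higher at the same times, with 1.23, 0.829 and 0.348 CPM in Ctr 12 h and 12.8, 8.98 and 22.1 CPM in SE 12 h (log2FC 4.29 ± 0.57, adjusted p = 1.1e-05). Knl1, the scaffold of the outer kinetochore, had 0 reads in the 3 Ctr 72 h libraries and 249 in SE 72 h, at least 8.20-fold more against a floor of 3 counts per library. By summed counts with 95% counting intervals, the ratio was 21.3 (8.84 to 67.0) for Knl1 and 59.5 (16.1 to 497) for the cohesin acetyltransferase gene Esco2 at 36 h. At 72 h it was 86.8 (15.4 to 3444) for Sgo1, which protects cohesion at centromeres and had 1 read in controls, and 4.54 (1.42 to 23.2) for the flap endonuclease gene Fen1. Of the lower DEGs, Lin52, a MuvB subunit, had a log2FC of -0.91 ± 0.12 at 24 h and Tfdp2, a partner of E2F, -0.67 ± 0.16 at 36 h. The condensin genes Smc2 and Ncapd2 were lower at 6 and 12 h and higher at 72 h, with a log2FC of -1.04 ± 0.21 and -1.02 ± 0.16 at 12 h and 1.17 ± 0.22 and 0.79 ± 0.17 at 72 h. Ube2c, the enzyme that works with the APC, had 4, 4 and 1 reads in Ctr 36 h and a log2FC of 4.02 ± 0.53 at 36 h (adjusted p = 6.64e-06). By summed counts, the ratio at 72 h was 33.1 for Cdt1, whose controls had 7 reads (95% counting interval 16 to 82.8).

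Markers of several cell types moved over the same times, and their part in the result was not tested. For the marker counts here and in the next paragraph, the shares of all genes are as follows. At 6 h 15.8% were higher and 6.21% lower, and at 12 h 13.9% and 11.4%. At 36 h the shares were 12.7% and 8.91%, and at 72 h 15.2% and 4.20%. The 10 microglia markers summed to 231, 256 and 260.2 CPM in SE 6 h, below all controls (329.9 to 427 CPM). They summed to 741, 644 and 728 CPM in SE 36 h and to 1380.2, 1853 and 2011 CPM in SE 72 h. At 72 h 10 of 10 of them were DEGs with a higher level, and at 36 h 7 were higher and 1 (P2ry12) lower. At 12 h 1 was higher and 2 lower, and at 6 h 0 and 5. The 6 astrocyte markers summed to 1621, 1502 and 1381 CPM in Ctr 72 h and 11574, 13006 and 13969.5 CPM in SE 72 h, mostly Gfap and Vim, and 4 of 6 were higher. Their sum was 5084, 3571 and 5681 CPM in SE 12 h and 8845, 6475 and 8338 CPM in SE 36 h. Markers of oligodendrocyte precursors, the main dividing glia of the healthy adult brain, summed to 212, 179.6 and 161 CPM in Ctr 72 h and 266, 255 and 253 CPM in SE 72 h, with 1 of 6 (Cspg4) higher. Their sum was 109, 129 and 129 CPM in SE 24 h. Of 8 endothelial and mural markers, 3 were higher at 72 h (sums 493, 498 and 500.5 CPM against 385, 416 and 361 CPM).

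Markers of infiltrating leukocytes had low sums, 1.18, 15.3 and 6.00 CPM in Ctr 72 h and 55.3, 17.8 and 3.75 CPM in SE 72 h. The SE 72 h libraries differed widely in this sum. Of the 6 leukocyte markers tested, 3 (Ccr2, Chil3 and Ms4a4c) were higher at 72 h, and Ms4a4c had 0 reads in the 3 Ctr 72 h libraries. The 7 markers of neural progenitors and immature granule cells summed to 73.1, 61 and 85.1 CPM in Ctr 72 h and 74.6, 53.5 and 47.4 CPM in SE 72 h. Igfbpl1 was among those higher and Dcx was lower, and Eomes had 6, 0 and 1 reads after SE. Markers of dentate granule cells summed to 43.2, 58.8 and 40.1 CPM in Ctr 72 h and 329, 54.3 and 71.5 CPM in SE 72 h, with replicate 1 far above the others. They were also high at 36 h, with 177, 167 and 78.1 CPM after SE and 53.9, 41.4 and 40.2 CPM in controls, without overlap. At that time 1 of 5 was a DEG with a higher level (12.7% of all genes). In SE 12 h the sums were 167, 66.5 and 174 CPM (controls 91.9, 69.9 and 124 CPM) and in SE 6 h 169, 74.3 and 74.8 CPM. Of the 5, Prox1, C1ql2 and Dsp were higher at 72 h, and Dsp had 0 reads in the 3 Ctr 72 h libraries. SE 72 h replicate 1 also had the lowest sum of CA1 pyramidal markers (339 CPM, against 757 and 743 CPM in its group and 1172, 1016 and 855 CPM in Ctr 72 h). At 36 h these markers summed to 795, 772 and 961 CPM after SE and 1565, 1649 and 1605 CPM in controls, and 3 of 6 were lower. All 6 CA1 markers were detected in every library at 72 h. The 8 markers of neurons in general summed to 7575, 7431 and 7606 CPM in SE 36 h against 14723, 13793 and 13302 CPM in Ctr 36 h. At 72 h the sums were 6279, 7397 and 8189 CPM against 11983, 9758 and 11103 CPM, and 3 of 8 were lower at each time. The SE libraries lay below the controls at both times. Of the markers of fibroblasts and meninges, 4 of 6 were higher at 36 h and 1 at 72 h, and of those of blood cells 3 of 5 were lower at 72 h. Leaving out a single library of the groups at 72 h gave 47 or 48 of the 50 cell cycle genes as DEGs, and 48 without SE 72 h replicate 1.

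**Figure D4:**
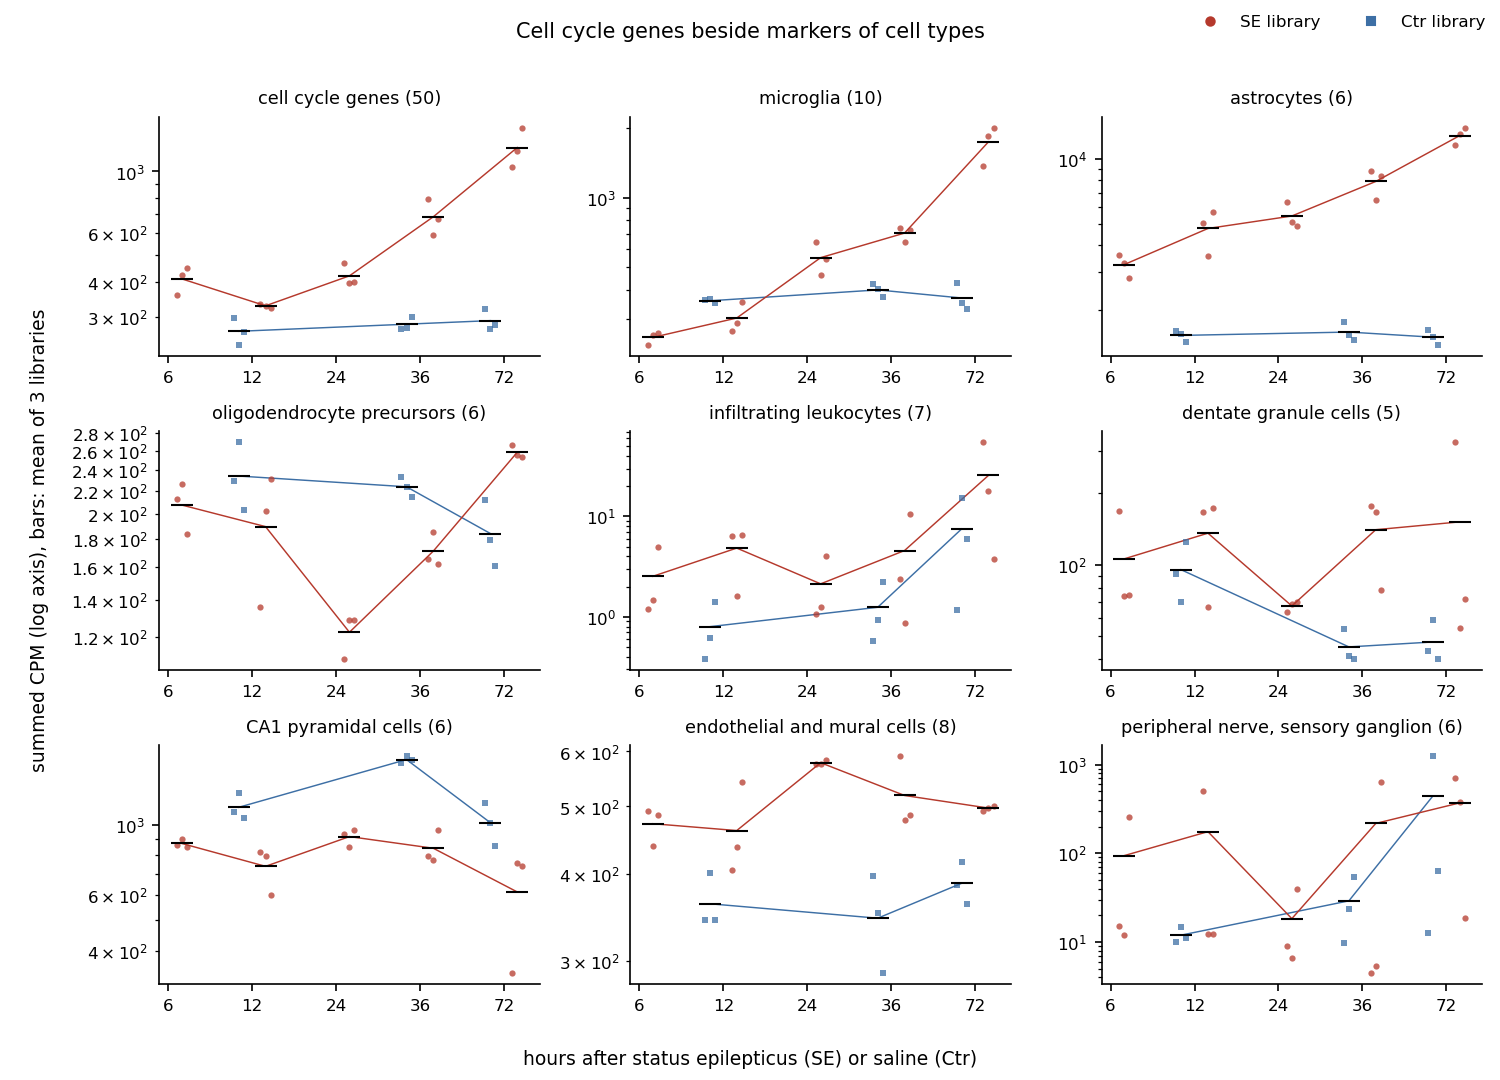
Summed CPM (y axis, logarithmic) of the 50 cell cycle genes and of 8 lists of cell type markers in every library by hours after SE or saline (x axis, evenly spaced), with the number of genes in brackets. Red circles are SE libraries, blue squares are Ctr libraries, and bars are means of 3 libraries. Cell cycle genes and microglia markers are both highest at 72 h, the astrocyte sum is above controls from 6 h on, and the peripheral nerve sum separates single libraries within groups.

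Libraries of a group differed in the level of the cell cycle genes as a whole. In SE 36 h, replicate 2 had the lowest level for 38 of the 50 genes and replicate 1 the highest for 38, where 33.6% and 33.3% of all genes had their lowest and highest level in these libraries. In SE 72 h, replicate 1 was lowest for 36 genes and replicate 3 highest for 35 (38.8% and 37.5% of all genes), and in SE 24 h replicate 1 was highest for 33 (30.1%). Among controls, Ctr 72 h replicate 2 was lowest for 29 of the 50 genes (44.8% of all genes). In both values, ties went to the lower replicate number. Ccnb1, Cdca3, Bub1, Cdc20, Ndc80 and Aurkb had 0 reads in both replicates 2 and 3 of Ctr 72 h. The factor of unwanted variation was set mostly by Ctr 72 h replicate 2, and without the factor 43 genes were DEGs at 36 h and 47 at 72 h.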

How the data were processed

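The authors trimmed paired-end reads of unstranded polyA libraries with Trim Galore 0.6.6, aligned them with STAR 2.7.8a to GRCm39 with GENCODE M26, and counted reads per gene with htseq-count (HTSeq 0.13.5) without strand, joining lanes (SAMtools 1.10). The deposited values are raw counts in 18647 rows, of which 18552 matched a symbol and 95 did not. Columns of no sample numbered 0. From these counts, 18153 genes passed filterByExpr and were fitted with edgeR 4.0.16 (R 4.3.3): TMM normalization, a term for each of the 8 groups, 1 RUVr factor, quasi-likelihood tests, and Benjamini-Hochberg adjustment over all 18153 genes. DESeq2 1.42.0 and limma 3.58.1 (voom) were alternatives, as were other scalings, filters, thresholds, controls, thinned counts, a replicate block and leaving out each library. Replicate numbers of the labels were checked as pairs. At 12, 36 and 72 h the correlations of same-numbered SE and Ctr libraries ranged from -0.20 to 0.18. The fit was unpaired, though weak correlations cannot exclude a pairing. The steps were tested on simulated data. The 50 genes and all lists were chosen with earlier results of these data known. Genes named in every library were Mki67, Top2a, Cdk1 and Ccnd1, the most abundant gene of each role group, the 3 DEGs with the largest rise and the 3 with the largest fall in each comparison, and every gene called lower than controls. Others are named by role only. The result of 1 gene of the marker lists is not reported here. Counting intervals cover counting error only. Gene positions and overlaps come from GENCODE vM39 on GRCm39, and promoters from RefSeq (GRCm38.p6).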

Additional observations from a re-analysis of the deposited data

Results flagged for a closer look

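The SE effect at 72 h exceeded that at 12 h for 39 of the 50 cell cycle genes, by the test of the difference itself (edgeR's quasi-likelihood test, adjusted over all genes). Among the genes described in full, the difference was largest for Melk (8.95 on the log2 scale), Bub1 (8.02) and Cdca3 (7.80). With 0 reads of Melk and 2 of Bub1 in the 3 Ctr 72 h libraries, these 2 fitted values depend on the prior count and are no bound. For Cdca3, the SE libraries were below all controls at 12 h and above them at 72 h. The 12 h and 72 h libraries also differ in the range of the numbers in their labels, and with that range as a factor 19 genes passed.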

How the results depend on the processing

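Of the named genes' results, 980 kept their call and direction when libraries were left out, 145 lost the call and 1 reversed. These counts cover each single library and also the run without the libraries with high peripheral nerve markers. The reversed result was Racgap1 at 12 h, whose log2FC was -0.037 when SE 12 h replicate 2 was left out and 1.59 when replicate 3 was. Under other settings 1304 kept the call and 161 lost it. Leaving out single libraries gave 17 to 22 DEGs of the 50 genes at 6 h (21 with all), 7 to 12 at 12 h, 18 to 31 at 24 h, 42 to 44 after 36 h and 47 to 48 after 72 h. It gave 1 to 5 for 12 against 6 h, 2 to 5 for 24 against 12 h, 1 to 9 for 36 against 24 h, 13 to 23 for 72 against 36 h, and 35 to 43 for the difference of effects. Without the factor of unwanted variation the counts were 3 for 12 against 6 h and 1 for 36 against 24 h. With the label ranges in its place they were 6 at 6 h, 6 at 12 h, 8 at 24 h, 3 for 12 against 6 h, 1 for 24 against 12 h, 0 for 36 against 24 h, 15 for 72 against 36 h and 19 for the difference of effects. DESeq2 gave 6 for 24 against 12 h and 14 for 36 against 24 h. The other log2FC threshold gave 7 at 12 h, and none gave 5 for 24 against 12 h. Fitting only the groups compared gave 7 at 12 h, 1 for 12 against 6 h, 0 for 24 against 12 h and 0 for 36 against 24 h. Other controls gave 13 at 6 h and 16 at 24 h. Counts thinned to the shallowest library gave 14 at 24 h, 2 for 12 against 6 h and 2 for 36 against 24 h. Without the libraries with high peripheral nerve markers, a choice made after the data were seen, the counts were 12 at 6 h, 6 for 24 against 12 h and 6 for 72 against 36 h. The cause of these changes was not tested. With the replicate block the counts were 20, 11, 26, 44 and 48 from 6 to 72 h, and it ended 2 calls of named genes. Scaling by library totals alone gave a median over all genes of 0.13 at 36 h (0.00 by TMM) and 0.14 at 72 h (0.10 by TMM), with 44 and 48 of the 50 genes as DEGs. The shallow Ctr 72 h libraries limit low genes, such as Melk and Bub1, to bounds or counting intervals.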
